A study of Homo sapiens with 10 samples.

Results

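The m6A regions of this account were those found in parental A549 cells and not called in their cisplatin-resistant counterpart. Peaks of the 4 deposited lists were joined into a region when exon blocks on one strand overlapped by 1 base or more, and chains of overlapping peaks made 1 region. A merged region was kept when it held a peak of both A549 lists and of neither A549/DDP list. This left 2318 of 37903 merged regions, on 1412 genes, and they are called A549-only regions here. They made up 26% of the 8923 regions called in both A549 lists, a share that the rule itself fixes. The regions were chosen by the calls in the 4 lists, so lengths, p-values and places of peaks are given as a description, and the RNA of the input libraries was the measure that was tested.

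A549 is a human lung adenocarcinoma line with an epithelial character, and A549/DDP is a line grown from it that resists cisplatin (DDP), a drug that crosslinks DNA. No treatment is given for either line at harvest. Each line had 2 m6A-seq libraries, in which RNA fragments were pulled down with an antibody against N6-methyladenosine, and 2 input libraries of fragments that were not pulled down. Titles and cell type labels separate the lines, although the cell line label of the A549/DDP inputs reads A549. The labels do not say whether replicates came from separate cultures, so p-values measure the spread between these libraries, which may be technical. The resistant line is a single derivative of A549, so resistance cannot be told apart from other differences between these cultures.

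N6-methyladenosine is the most common internal mark of messenger RNA. It is written by a complex built around METTL3 and METTL14, mostly in GGAC and related words near stop codons and in long exons, and it is read by YTH-domain and IGF2BP proteins, which act on the decay and translation of the RNA. Peaks are called from fragments of a transcript, yet some genes at 0 TPM in the inputs carried peaks here, as given further on.

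The inputs held 29225501 to 35286514 expected counts on genes. The peak lists held 26320 and 14576 peaks in A549 and 27244 and 10661 peaks in A549/DDP, and give no reads per peak, so m6A-seq depth is unknown. Of 11 epithelial and A549 markers, KRT7, KRT8, KRT18 and ALDH1A1 stood at over 1000 TPM (a level per transcript length) in all 4 inputs, with KRT7 at 4937 and 3468 TPM in A549 and 1306 and 1255 TPM in A549/DDP. ALDH3A1 stood at 708 to 1750 TPM and CDH1 at 28.9 to 226 TPM. The epithelial markers EPCAM, at 2.45 to 6.95 TPM, and KRT19, at 0 to 64.0 TPM, stood lower, and the lung surfactant gene SFTPC was at 0 and SFTPB and NKX2-1 were under 1 TPM. Fibroblast collagen and leukocyte markers were low, with COL1A1 at 1.85 to 14.7 TPM and PTPRC at 0 to 0.06 TPM, apart from CD68 at 128 to 156 TPM.

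Short stretches of A549-only regions that carry the GGAC word are shown first, because this word is the core of the sites that the m6A writer complex prefers. In TMEM214 and TSPYL4 the letter after the word is C or A, as the five-letter words given below require. In the others it is G, so their GGAC lies outside those five-letter words. Sequence was at hand only around gene starts, from RefSeq on GRCh38.p14, and 48 A549-only regions covered the whole first 50 bases of a gene. GGAC lay in 8 of these windows, or 16.7% (95% Wilson interval 8.70% to 29.6%, counting error only). Among all 35116 start windows of the reference 18.9% held it, and among the 159 windows inside regions of all 4 lists 27.7% did. The 8 stretches are read 5′ to 3′ on the strand of the gene, with the GGAC in capitals:
CFLAR, chr2:201118716-201118739, plus strand: agaggttctcGGACgccctccggc
TLN1, chr9:35732175-35732195, minus strand: gttcccaGGACggaagtggcc
TMEM214, chr2:27032965-27032983, plus strand: gcgccGGACcggaaagccg
FAM24B, chr10:122879532-122879550, minus strand: cgctggcggtGGACgcagg
CLPB, chr11:72434515-72434531, minus strand: gttGGACgtggtcagca
FGF2, chr4:122826832-122826855, plus strand: ccagattagcGGACgcggtgcccg
DEDD2, chr19:42217633-42217656, minus strand: aggagtcatcGGACgccagaatct
TSPYL4, chr6:116254039-116254062, minus strand: ccgctgcggaGGACaaggaactct

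Of these genes, CFLAR encodes the caspase-8 inhibitor c-FLIP, TLN1 the integrin-linked protein talin, FGF2 a growth factor and DEDD2 a death-effector domain protein. CFLAR had 5 A549-only regions among its 18 regions, and FGF2 had 1 of 7. Input CPM (counts scaled to library size) of FGF2 was 221 and 141 in A549 and 31.4 and 26.1 in A549/DDP. CFLAR stood at 288 and 219 CPM in A549 and at 115 and 78.2 CPM in A549/DDP. Both genes were lower in both A549/DDP libraries, with log2 fold changes of -2.65 ± 0.28 for FGF2 (SE, edgeR adjusted p = 0.00461) and -1.39 ± 0.25 for CFLAR (SE, edgeR adjusted p = 0.020). Both had peaks elsewhere in the longer A549/DDP list, on 6 regions of FGF2 and 10 of CFLAR. The CFLAR call was lost without A549/DDP replicate 2 (edgeR adjusted p = 0.0616).

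The reverse complement, GTCC, was found in 4 of the 48 windows (8.33%) and in 17.6% of all windows. Any of the 18 five-letter words that begin with A, G or T, go on with A or G and AC, and end in A, C or T lay in 24 windows (50%), beside 49.6% of all start windows. These counts describe 50 bases at the gene start and say nothing of the rest of a region.

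A549-only regions overlapped 2 annotated microRNA hairpins. A region of PLEKHM1, a lysosomal adaptor gene, covered all 73 bases of the hairpin of miR-4315 and all 18 bases of its mature form. A region of TRIM25, a ubiquitin ligase gene of antiviral signalling, covered 22 of 86 bases of the hairpin of miR-3614. The TRIM25 region covered only 11 of the 23 bases of the mature form miR-3614-3p and did not reach its seed. The mature forms are shown because the peaks lie on the strand that encodes them, with the seed in capitals:
hsa-miR-4315: cCGCUUUCugagcuggac
hsa-miR-3614-3p: uAGCCUUCagaucuugguguuuu
The seeds differ. The peaks were called on exons of the host genes, and microRNA levels were not measured in these libraries.

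The A549-only regions were shorter than regions of all 4 lists and mostly lay in a single exon block. Their median length was 347 bases (range 96 to 2599), against 747 bases for regions of all 4 lists and 298 bases for the 1173 regions called in both A549/DDP lists alone. More than 1 exon block was spanned by 29.4% of A549-only regions, by 56.2% of regions in all 4 lists and by 50.1% of A549/DDP-only regions. Each region came from 1 peak per A549 list in 1909 cases. Because longer merged regions have more chances to meet a peak of any list, length is tied to the rule.

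By RefSeq gene spans on GRCh38.p14, introns included, the median A549-only region lay 79.7% of the way from the start to the end of its gene (n = 2124), and 35.7% lay in the last 10% of the span and 10.3% in the first. Regions of all 4 lists had a median place of 75.6%, with 30.3% in the last 10%. Protein-coding genes carried 92.5% of A549-only regions with a biotype, and long noncoding RNA genes carried 129 of them (5.97%), against 2.21% of the regions in all 4 lists. The long noncoding share was 4.68% for regions called in A549 replicate 1 alone and 4.77% for A549 replicate 2 alone. Exons, introns and untranslated parts could not be separated, since no transcript annotation was used here.

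The genes of A549-only regions stood at lower input levels than those of shared regions. Their median was 19.6 TPM in A549 and 13.2 TPM in A549/DDP over regions, whereas genes of the regions in all 4 lists had a median of 50.9 TPM in both lines. A549/DDP-only regions lay on genes with a median of 88.4 TPM in A549 and 77.4 TPM in A549/DDP. Low levels were not particular to A549-only regions. Genes of regions called in A549 replicate 1 alone had a median of 19.2 TPM in both lines. For A549 replicate 2 alone the medians were 28.0 TPM in A549 and 19.8 TPM in A549/DDP.

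The deposited p-values were moderate. The median was 1e-05 in A549 list 1 and 6.9e-05 in list 2, both lists were at or below 1e-05 in 602 regions (26.0%), and the largest p was 0.025. All peaks of a gene shared 1 p-value in 41.2% to 47.7% of the genes with several peaks per list, so these values cannot rank regions within a gene. At the edge of the rule, the A549 lists shared a median of 191 bases within a region, under 50 bases in 48 regions and 1 base at the least. On the other side, among the 3301 regions with 1 A549/DDP list added, the A549/DDP peak shared under 50 bases with the A549 peaks in 30.

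For most A549-only regions no A549/DDP peak lay near. The nearest one on the same strand was more than 5000 bases away for 1665 regions (71.8%), 500 to 5000 bases away for 289 (12.5%), 50 to 500 bases away for 309 (13.3%) and within 50 bases for 55 (2.37%). Regions of the last kind border a called A549/DDP peak, and whether they count as A549-only depends on where a peak ends.

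Of the 1412 genes with an A549-only region, 792 (56.1%, 95% Wilson interval 53.5% to 58.7%, counting error only) had no peak anywhere in either A549/DDP list. The interval leaves out differences between libraries, and the share ran from 45.3% to 72.4% with 1 m6A-seq library left out. A peak elsewhere on the gene was found in 1 A549/DDP list for 365 genes (25.8%) and in both for 255 (18.1%). A region called in all 4 lists was kept on 240 of these genes, and 26 also held a region called in both A549/DDP lists alone. Peaks were thus missing over the whole gene for some genes and at single regions for others. Over all 4805 genes with a region in both A549 lists, 16.5% had no A549/DDP peak, and these are the same 792 genes by construction.

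**Figure D1:**
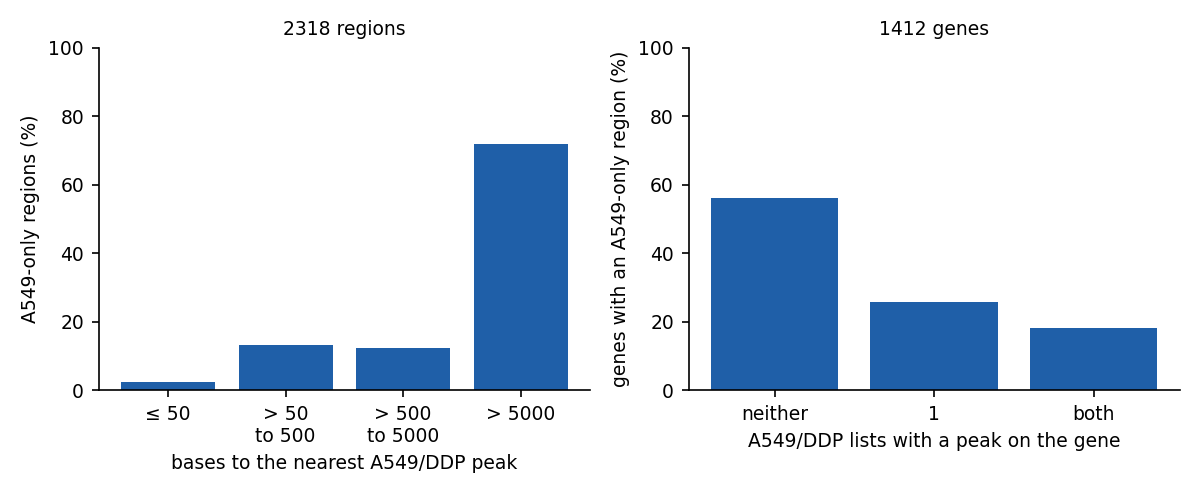
Left, share of A549-only regions (y axis, %) by the distance in bases from the region to the nearest A549/DDP peak on the same strand. Right, share of their genes (y axis, %) by the number of A549/DDP lists with a peak anywhere on the gene. In the left panel 71.8% of regions are over 5000 bases from such a peak, and in the right panel 56.1% of genes have none.

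The shortest list, that of A549/DDP replicate 2, weighed little on this selection, while the list of replicate 1 weighed much. Without A549/DDP replicate 1 the rule kept 5588 regions, and without replicate 2 it kept 2647. With the A549 lists reduced to replicate 2 alone it kept 4246 regions, and with replicate 1 alone 11607. With peaks at p of 1e-05 or less it kept 856 regions on 550 genes.

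The genes with A549-only regions tended to hold less RNA in A549/DDP. Of the 1350 that passed the filter on low counts, 247 (18.3%) were lower and 73 (5.41%) were higher in A549/DDP inputs (edgeR quasi-likelihood F-test, Benjamini-Hochberg adjusted p under 0.05), and 1030 did not pass. Among all 16406 genes tested, 8% were lower and 6.85% were higher. Among tested genes with a region in both A549 lists, 12.6% were lower and 8.92% higher. Among the 764 tested genes with an A549/DDP-only region, 16.6% were lower and 14.1% higher. The median log2 fold change was -0.47 over genes with an A549-only region, 0.00 over all genes, -0.10 over the 4553 tested genes with a region in both A549 lists and 0.07 over the 2332 with a region in all 4 lists. In bulk RNA, fewer cells that make a transcript and less of it per cell cannot be told apart.

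Lower RNA was most frequent on the genes without any A549/DDP peak. Genes with no A549/DDP peak had a median of -0.83, with 159 of 744 tested lower and 20 higher. Genes with a peak in 1 A549/DDP list had a median of -0.25, with 54 lower and 22 higher of 355. Genes with peaks in both lists had a median of -0.06, with 34 lower and 31 higher of 251. The genes in this last class had nearly as many rises as falls. Which input the peak caller used is not given in the sources used here, and how far RNA level sets the calls was not tested.

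This excess of lower genes depended on the peak threshold, on the A549 m6A-seq lists and on the A549 inputs used. With only peaks at p of 1e-05 or less, 9.25% of the genes were lower and 9.25% higher, with a median log2 fold change of -0.16, and with lists cut to equal size 10.8% were lower and 7.39% higher, with a median of -0.20. Without A549 m6A-seq replicate 2, 11.2% were lower and 8.26% higher. When a second pair of A549 inputs, which held 855034 and 982036 counts with 75.2% and 73.9% on mitochondrial genes, replaced the first, 114 of 1267 genes were lower and 243 higher. In that comparison 10.0% of all tested genes were lower and 17.2% higher, and the median was 0.58 for genes with an A549-only region and 0.80 for all genes.

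The share of A549 regions that were A549-only rose as the RNA of the gene fell. Among regions of both A549 lists on genes with a log2 fold change of -3 or less, 82.4% were A549-only (197 of 239, 95% Wilson interval 77.1% to 86.7%). The share was 58.6% between -3 and -2, 38.6% between -2 and -1, 25.2% between -1 and 0, and 17.6% between 0 and 1. Above 0 it moved little, at 16.3% between 1 and 2, 10.3% between 2 and 3 (9 of 87) and 16.9% above 3 (10 of 59).

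The opposite set was highest at the other end of the scale. Of the regions called in both A549/DDP lists, those called in neither A549 list made up 55.0% on genes with a log2 fold change above 3 (66 of 120), against 16.9% between 0 and 1, 13.2% between 1 and 2 and 21.9% between 2 and 3. Its share was also higher on genes with less RNA in A549/DDP, at 22.2% between -1 and 0, 26.1% between -2 and -1 and 31.3% between -3 and -2 (26 of 83), and it was 18.2% at -3 or less (6 of 33). With peaks at p of 1e-05 or less, the A549-only share was 74.8% at -2 or less, 43.2% between -1 and 0, and 38.8% above 2. Regions on a gene share its RNA, so these shares are descriptions and carry no test.

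The level of the RNA in A549/DDP moved with the share as well. On genes under 1 TPM in the A549/DDP inputs 55.7% of the A549 regions were A549-only (156 of 280), on genes at 1 to 5 TPM 68.7%, on genes at 10 to 20 TPM 31.2%, and on genes at 100 TPM or more 12.6%. Even there, 197 regions on such abundant transcripts were A549-only.

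Most genes had few A549-only regions. A single one was found on 837 genes, 2 on 341, 3 or more on 234 and 5 or more on 37. The 10 genes with the most regions held 7 to 9 each, and neither A549/DDP list had a peak on any of them.

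HIVEP2, which encodes a zinc finger transcription factor, was the only one of these 10 on which every region was A549-only. Its 9 regions lay on the minus strand of chromosome 6 between 142753063 and 142775032 and covered 3998 bases. Input RNA of HIVEP2 was 99.5 and 56.3 CPM in A549 and 39.2 and 37.0 CPM in A549/DDP. The groups did not overlap, as was true of 62.4% of all genes tested, and the log2 fold change was -1.03 ± 0.31 (SE, edgeR adjusted p = 0.0759).

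ANKLE2, a nuclear envelope gene, had 9 A549-only regions among 13, with 317 and 190 CPM in A549 and 163 and 135 CPM in A549/DDP. MACF1, which encodes a large linker of actin and microtubules, had 8 among 13. The MACF1 input stood at 762 and 687 CPM in A549 and at 262 and 273 CPM in A549/DDP. MACF1 was lower in both A549/DDP libraries, with a log2 fold change of -1.44 ± 0.15 (SE, edgeR adjusted p = 0.00482).

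Of the 2 centrosome genes, C2CD3, which is needed for centriole elongation, had 7 A549-only regions among 8 and ALMS1, a basal body gene, had 7 among 16. C2CD3 stood at 224 and 190 CPM in A549 and at 60.1 and 70.7 CPM in A549/DDP, a log2 fold change of -1.66 ± 0.19 (SE, edgeR adjusted p = 0.00577). ALMS1 stood at 69.4 and 62.8 CPM and at 36.7 and 37.8 CPM, a log2 fold change of -0.83 ± 0.21 (SE, edgeR adjusted p = 0.0486). The ALMS1 call was lost under upper-quartile scaling (edgeR adjusted p = 0.0549) and when A549 replicate 1 or either A549/DDP replicate was left out. C2CD3 reached 0.52 on the log2 scale and ALMS1 0.16 with the second pair of A549 inputs.

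Like HIVEP2 and ANKLE2, the other 5 genes with the most regions did not pass the test. PEAK1, a pseudokinase gene, had a log2 fold change of -0.53 ± 0.21 (SE), the AT-hook gene AHDC1 0.17 ± 0.41, the Rab GTPase-activating gene TBC1D16 1.04 ± 0.33, the zinc finger gene ZNF469 -0.54 ± 0.29 and TTC28 -0.38 ± 0.27, each with 2 libraries per line. Their levels were 13.3 to 101 CPM. TBC1D16 stood at 32.3 and 62.7 CPM in A549 and at 93.8 and 101 CPM in A549/DDP, so its 8 A549-only regions among 19 were not accompanied by lower input RNA.

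**Figure D2:**
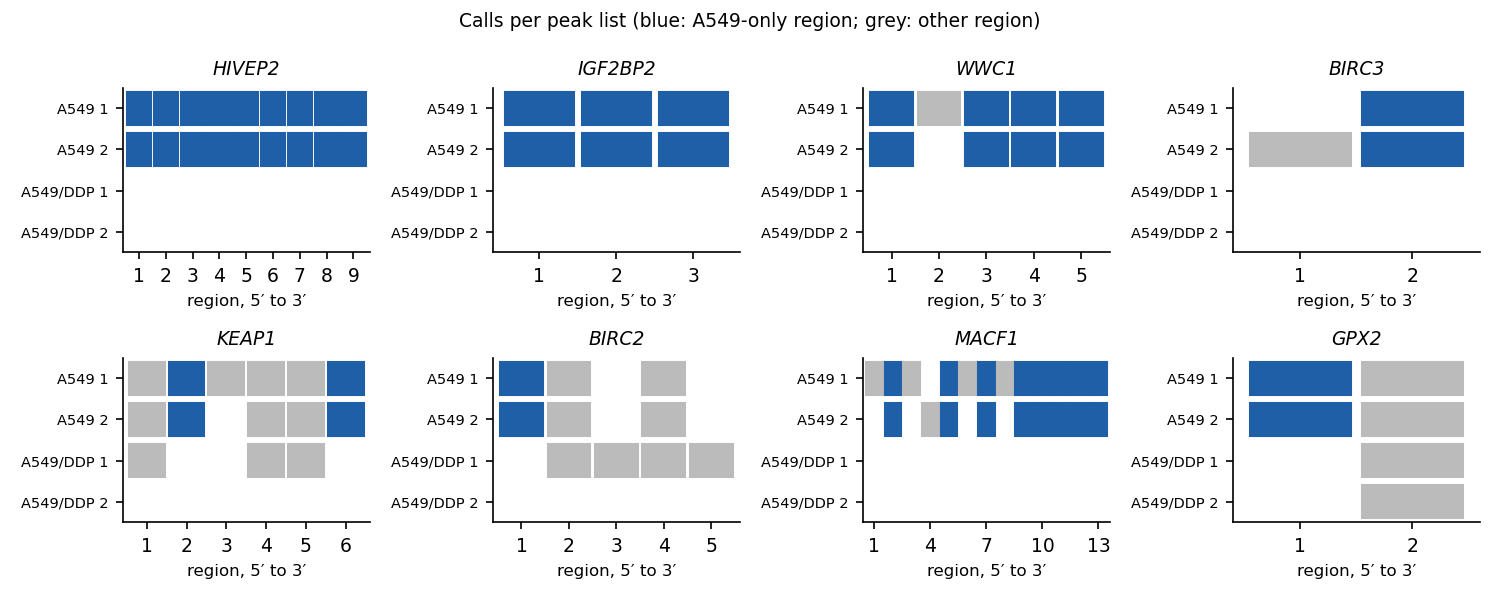
Calls of 8 genes, with the merged regions of a gene numbered 5′ to 3′ along the x axis, not to scale, and the 4 peak lists as rows. Filled cells are calls, in blue for A549-only regions and in grey for other regions; HIVEP2, IGF2BP2, WWC1, BIRC3 and MACF1 have no A549/DDP call, KEAP1 and BIRC2 keep calls in A549/DDP list 1, and GPX2 keeps 1 region in all 4 lists.

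Of the 8 most abundant genes without any A549/DDP peak, 2 were lower (WWC1, given further on, and a gene with no symbol), 1 was higher and 5 did not pass. The call of ENSG00000262413, the gene with no symbol, was lost without A549/DDP input replicate 2 (edgeR adjusted p = 0.0544). Its expected counts in the A549 inputs were fractional, at 11701.5 and 6472.64, so its reads can be shared with other genes. EEF2, the elongation factor that moves the ribosome along the message, had a single region, which was A549-only, on chromosome 19 from 3976106 to 3976702, 597 bases on the minus strand. EEF2 stood at 2653 and 2666 CPM in A549 and at 2814 and 2723 CPM in A549/DDP, and its log2 fold change was 0.06 ± 0.13 (SE, edgeR adjusted p = 0.828). Per length its TPM was 2777 and 2690 in A549 and 2120 and 2162 in A549/DDP, so the direction differed between the scales.

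YWHAQ, a 14-3-3 adaptor gene, also had its only region called in A549 alone (346 bases on chromosome 2 from 9630226 to 9630571). It stood at 532 and 518 CPM in A549 and at 463 and 484 CPM in A549/DDP, a log2 fold change of -0.15 ± 0.14 (SE, edgeR adjusted p = 0.557). IGFBP4, a secreted binder of insulin-like growth factors, gave 2119 and 2258 CPM against 1877 and 1921 CPM, a log2 fold change of -0.20 ± 0.14 (SE, edgeR adjusted p = 0.366). None of EEF2, YWHAQ and IGFBP4 passed the test.

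The ribosomal protein genes RPS14 and RPL24, whose reads can be split with processed pseudogenes, had log2 fold changes of 0.61 ± 0.23 and 0.10 ± 0.16 (SE) and did not pass. TGM2, a protein-crosslinking transglutaminase, was the exception in the other direction. Its 3 A549-only regions among 7 had no A549/DDP peak beside them, although its input rose from 549.04 and 433 CPM in A549 to 3042 and 3341 CPM in A549/DDP, a log2 fold change of 2.70 ± 0.18 (SE, edgeR adjusted p = 0.00203).

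The largest falls among called genes with an A549-only region ended at or near 0 counts. ULBP1, a stress ligand recognised by natural killer cells, had 1187 and 1097 counts in the A549 inputs and 3 and 0 in A549/DDP, a ratio of 689 (95% counting interval 235 to 3342). ZNF229 had 712 and 416 counts against 1 and 0, a ratio of 1020 (183 to 40342), and the sarcomere gene MYPN 562 and 400 against 2 and 0, a ratio of 435 (120 to 3598). The 2 others carry no symbol in the name tables. ENSG00000282034 was at least 1106-fold and ENSG00000248710 at least 354-fold lower, taking 3 counts over both A549/DDP libraries as the floor.

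On ENSG00000282034 peaks were nevertheless called on 4 of its 5 regions in each A549/DDP list, while its A549/DDP inputs were at 0 TPM. Reads of overlapping genes can be assigned differently by the peak caller and by the expression estimate, so its fall is uncertain. ENSG00000279232 showed the mirror image, with an A549-only region and 0 counts in both A549 inputs, and it was at least 257-fold higher in A549/DDP on the same floor.

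Of the other large rises, GPX2, a glutathione peroxidase gene, stood at 15.8 and 32.5 CPM in A549 and at 329 and 328 CPM in A549/DDP, a log2 fold change of 3.76 ± 0.37 (SE, edgeR adjusted p = 0.00392). It kept 1 region in all 4 lists, on chromosome 14 from 64939202 to 64940055, and lost the call on its region from 64942555 to 64942755. APOL1, an apolipoprotein gene, rose from 2.68 and 5.78 CPM to 47.8 and 51.1 CPM, a log2 fold change of 3.54 ± 0.45 (SE, edgeR adjusted p = 0.00775), and also kept a region in all 4 lists. DOLK, the dolichol kinase gene, rose by 2.65 ± 0.52 (SE, edgeR adjusted p = 0.0241), a call lost without A549/DDP replicate 1 (edgeR adjusted p = 0.0502). For GPX2, APOL1 and DOLK another region of the gene was therefore still called in A549/DDP.

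**Figure D3:**
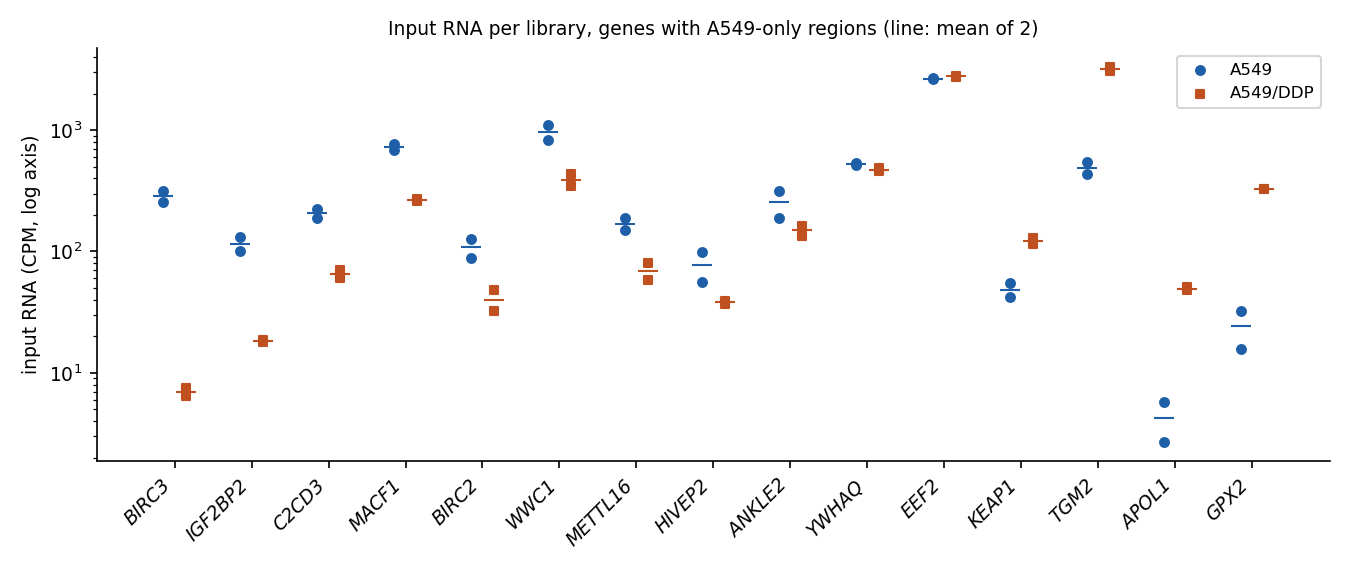
Input RNA (y axis, CPM on a log axis) of 15 genes with A549-only regions (x axis), with 1 point per library, blue circles for A549 and orange squares for A549/DDP, and a line at the mean of the 2. BIRC3 falls from over 255 to under 8 CPM, EEF2 and YWHAQ lie close together in both lines, and TGM2, APOL1 and GPX2 are higher in A549/DDP.

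Pathway lists that fit this pair of lines were read for A549-only regions. Of all tested genes 8.23% hold one. A gene can hold one only where both A549 lists have a region, and 1412 of the 4805 genes of this kind did. By list, genes of this kind numbered 14 for the m6A system, 11 for Hippo and 18 for chromatin. They numbered 9 each for apoptosis, ERBB and repair, 6 for KEAP1-NRF2, 3 for G1 and 1 for drug transporters. Over 9 lists, 26 tested genes held 51 A549-only regions. Of the 26 genes, 8 were lower, 1 was higher and 17 did not pass, with a median log2 fold change of -0.62. Of all tested genes with an A549-only region 18.3% were lower and 5.41% higher, with a median of -0.47. Of all tested genes 8% were lower and 6.85% higher. No A549/DDP peak was found on 12 of the 26 genes, 9 kept peaks in 1 list and 5 in both.

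Among genes of the m6A system itself, 3 of 21 held A549-only regions, and of all 21 genes 7 were lower and 0 higher, where 8% of all tested genes were lower and 6.85% higher. The list median was -0.25, against 0.00 over all genes. IGF2BP2, a reader that stabilises marked messages, had 3 regions, all A549-only, on chromosome 3 between 185643789 and 185645483. IGF2BP2 input was 132 and 100 CPM in A549 and 17.9 and 18.5 CPM in A549/DDP, a log2 fold change of -2.67 ± 0.23 (SE, edgeR adjusted p = 0.00318).

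METTL16, which methylates U6 snRNA and the MAT2A message, lost its region from 2416157 to 2416570 on chromosome 17 and kept one from 2419540 to 2420584 in all 4 lists. It stood at 190 and 149 CPM in A549 and at 80.1 and 58.3 CPM in A549/DDP, a log2 fold change of -1.30 ± 0.24 (SE, edgeR adjusted p = 0.0198), a call lost without A549/DDP replicate 2 (edgeR adjusted p = 0.0724). METTL14, the partner of METTL3, had 3 A549-only regions among 7, with a log2 fold change of -0.56 ± 0.31 (SE) that did not pass.

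The Hippo pathway, a kinase cascade that restrains the transcriptional coactivator YAP1, held A549-only regions on 4 of 21 genes, and 8 of the 21 were lower and 0 higher, with a median of -0.81, where 8% and 6.85% of all tested genes were lower and higher and their median was 0.00. None of the 4 genes, WWC1, LATS1, NF2 and STK4, had an A549/DDP peak. WWC1 (KIBRA), which activates the LATS kinases, stood at 1108 and 835 CPM in A549 and at 343 and 432 CPM in A549/DDP. Its log2 fold change was -1.33 ± 0.21 (SE, edgeR adjusted p = 0.0131), and it was 1.15 with the second pair of A549 inputs. The kinase gene LATS1, with 5 of 5 regions A549-only, had -1.04 ± 0.28 (SE) and the scaffold gene NF2, with 2 of 2, had -1.34 ± 0.40 (SE), and neither passed (edgeR adjusted p = 0.0594 and 0.0752). STK4, which encodes the upstream kinase MST1, had a log2 fold change of 0.13 ± 0.19 (SE).

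Chromatin regulators were the list with the largest share, with A549-only regions on 8 of 25 genes (32.0%). They also had the most genes with a region in both A549 lists, 18 of 25, and only such genes can hold one. Among them were the histone methyltransferase genes KMT2A, KMT2C, SETD2 and NSD1, the demethylase gene KDM5C and the remodeller gene ARID1B. All 8 kept A549/DDP peaks elsewhere on the gene, and the A549-only regions numbered 1 or 2 of 6 to 21. SETD2, for example, had 2 A549-only regions among 13, and 9 of the 13 were called in A549/DDP list 1. Over the whole list 8 of 25 genes were lower and 1 higher, where 8% and 6.85% of all tested genes were. Of the 8 with an A549-only region KMT2C alone passed, and it was lower, from 201.49 and 150 CPM to 86.3 and 77.3 CPM. Its log2 fold change was -1.10 ± 0.21 (SE, edgeR adjusted p = 0.0223), a call lost without either A549/DDP replicate. Per length, KMT2C stood at 21.12 and 21.95 TPM in A549 and at 41.58 and 15.06 TPM in A549/DDP. The A549/DDP values thus lay on both sides of the A549 values on the TPM scale.

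Of 22 apoptosis genes 8 were lower and 1 higher, where 8% and 6.85% of all tested genes were, and 2 held an A549-only region. Both are inhibitors of apoptosis that ubiquitinate RIPK1. BIRC3 (cIAP2) stood at 315 and 256 CPM in A549 and at 6.44 and 7.48 CPM in A549/DDP, a log2 fold change of -5.35 ± 0.23 (SE, edgeR adjusted p = 0.00138). Its A549-only region covered 897 bases on chromosome 11 from 102324407 to 102325303, and no A549/DDP peak was called on the gene. BIRC2 (cIAP1), its neighbour on chromosome 11, had calls on 4 of 5 regions in A549/DDP list 1 and stood at 127 and 88.4 CPM against 32.2 and 47.7 CPM. The BIRC2 log2 fold change was -1.43 ± 0.29 (SE, edgeR adjusted p = 0.0264), a call lost without A549/DDP replicate 1 (edgeR adjusted p = 0.0728), and its TPM of 74.2 and 58.8 against 49.3 and 53.4 differed less than its CPM.

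In the ERBB, RAS and ERK list 3 of 23 genes held A549-only regions, with no A549/DDP peak on any of them. Over the whole list 6 were lower and 2 higher, where 8% and 6.85% of all tested genes were. DUSP6, a phosphatase of ERK, fell from 36.0 and 34.1 CPM to 1.59 and 6.54 CPM, a log2 fold change of -3.10 ± 0.68 (SE, edgeR adjusted p = 0.0332). The exchange factor gene SOS2 and the feedback inhibitor gene SPRY4 had log2 fold changes of -0.39 ± 0.29 and -0.89 ± 0.38 (SE) and did not pass.

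Repair of crosslinks and adducts, which removes cisplatin damage, was represented by 3 of 23 genes. Of the 23, 2 were lower and 1 higher, close to the 8% and 6.85% of all tested genes. ERCC4 (XPF), a subunit of the nuclease that cuts beside the lesion, had 2 A549-only regions among 5 and no A549/DDP peak. It stood at 40.6 and 37.9 CPM in A549 and at 14.2 and 10.1 CPM in A549/DDP, a log2 fold change of -1.69 ± 0.32 (SE, edgeR adjusted p = 0.0213). The helicase gene ERCC2 (-0.09 ± 0.29, SE) and the damage sensor gene DDB2 (-0.89 ± 0.30, SE) did not pass.

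Among G1 cell cycle genes 2 of 15 tested held a region, CDKN1B (p27) with 0.73 ± 0.24 (SE) and E2F3 with -0.25 ± 0.28 (SE), and neither passed. Of the 15 genes 2 were lower and 1 higher, where 8% and 6.85% of all tested genes were. CDKN1B also carried a region called in both A549/DDP lists alone, beside its A549-only region of 149 bases. Of 12 tested drug transporter genes 0 held an A549-only region, and 3 were higher and 0 lower, against 6.85% and 8% of all tested genes.

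In the KEAP1-NRF2 list, KEAP1 alone held A549-only regions. Of its 21 genes 12 were higher and 2 lower in A549/DDP, against 6.85% and 8% of all genes tested. KEAP1 is the adaptor that marks the oxidative stress factor NRF2 for degradation. Its 2 regions lay on chromosome 19 from 10486169 to 10486318 and from 10499493 to 10499691, each next to a region that A549/DDP list 1 also called, and both disappeared from the set when peaks up to 100 bases apart were merged. Its log2 fold change was 1.34 ± 0.21 (SE, edgeR adjusted p = 0.0136).

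Regions with the lowest p in both A549 lists differed in what A549/DDP kept nearby. A region of MAML1, a Notch coactivator gene, lay 48 bases from the nearest A549/DDP peak. AKIRIN2, a nuclear factor gene, was different. Its only region covered 950 bases on chromosome 6, with deposited values of 1.6e-11 and 2e-11, and no A549/DDP peak was called on it. AKIRIN2 input fell from 65.4 and 58.6 CPM to 16.4 and 21.6 CPM, a log2 fold change of -1.71 ± 0.26 (SE, edgeR adjusted p = 0.0119). Others were a region shared by ALKBH6 and an overlapping gene, one on ENSG00000251196 and one on the keratin pseudogene KRT8P12, whose reads can be shared with KRT8.

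The longest A549-only regions covered 2599 bases on TOR4A, 2598 bases on MACF1 and 2237 bases on SH2D5. SH2D5 fell from 64.5 and 42.5 CPM to 6.11 and 1.95 CPM, a log2 fold change of -3.74 ± 0.60 (SE, edgeR adjusted p = 0.0141), and TOR4A did not pass at -1.32 ± 0.41 (SE, edgeR adjusted p = 0.0862). None of these 3 genes had an A549/DDP peak.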

How the data were processed

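The authors deposited 1 list of called peaks per m6A-seq library, giving the gene, the strand, exon blocks and a p-value for each peak. The lists do not say if this p-value was adjusted. For each input library they deposited estimates per gene, namely expected counts, TPM and FPKM, the last 2 scaled by the authors for length and depth (FPKM was not used here). The submitters' processing notes name STAR, RSEM, bedtools and build hg38. The peak caller is not given in the sources used here. Replicate numbers follow the labels, which for the A549 m6A-seq libraries are exchanged relative to the file names.

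After rounding, expected counts passed filterByExpr and TMM scaling, and edgeR 4.0.16 (glmQLFit, glmQLFTest, no block) was run in R 4.3.3, with adjustment over 16406 genes. SEs are the log2 fold change over the square root of F. Replicates differed beyond sampling noise. Merging was done in Python 3.11.15 and both steps were tested on simulated data. DESeq2 1.42.0 was an alternative. The symbols, starts and sequences came from RefSeq tables.

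The regions and gene lists were chosen with earlier results of these data known. Named genes were the 10 with most A549-only regions, the 8 most abundant by TPM without an A549/DDP peak, the 5 largest rises and 5 largest falls among called genes (mean CPM of 5 or more, each numbered pair moving the same way), KEAP1 and 12 further list genes by TPM, and the 6 regions with lowest p and 3 longest. Further list genes, the genes of the printed sequences and a check of lower and higher genes under other peak selections were added after values were seen. Some results are not reported here.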

Additional observations from a re-analysis of the deposited data

How the results depend on the processing

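The 2437 genes called over all genes became 4278 with DESeq2, 4010 with no filter beyond 1 count, 3758 with the second pair of A549 inputs and 677 with both pairs, and ran from 2052 to 3809 when 1 input was left out (3809 without A549 replicate 2). Genes with an A549-only region that were lower (247) numbered 386, 389, 114 and 90 under the same 4 settings and 239 to 365 with 1 input left out. Those that were higher (73) numbered 118, 117, 243 and 9, and 35 to 108, with 35 without A549/DDP replicate 1. With the replicate number as a block, 3536 genes were called, 360 of these genes lower and 102 higher; same-numbered libraries shared only a number (correlation of deviations 0.02 over 2 pairs). A549-only regions (2318) numbered 856 with peaks at p of 1e-05 or less, 1087 with equal lists and 2647 to 11607 with 1 m6A-seq library left out. The share of their genes with no A549/DDP peak (56.1%) was 68.0% and 68.6% under the first 2 settings, 52.0% with an overlap of at least 50%, 62.3% with peaks 100 bases apart merged, and 45.3% to 72.4% with 1 library left out. The 18 words in place of GGAC gave 50% of start windows. The second pair of A549 inputs moved the median of all genes by 0.80 and reversed the median of genes with an A549-only region (0.58) and the log2 fold changes of HIVEP2 (2.19), ANKLE2 (1.07), ALMS1 (0.16), C2CD3 (0.52), ZNF469 (0.92), TTC28 (11.97), IGFBP4 (0.96), ENSG00000262413 (2.79), RPL24 (-2.17), YWHAQ (0.23), WWC1 (1.15), KDM5C (1.44), NSD1 (1.44), METTL16 (0.36), LATS1 (1.46), SPRY4 (1.67), ERCC2 (1.495) and SOS2 (1.80), and 9 called genes no longer passed, among them MACF1 (-0.19), IGF2BP2 (-0.87) and ERCC4 (-0.04). Both pairs together reversed TTC28 (0.012), IGFBP4 (0.17), RPL24 (-1.60), KDM5C (0.28), NSD1 (0.094) and ERCC2 (0.13), and 14 called genes no longer passed. Under DESeq2 and under the block 8 more of the named genes passed. AHDC1 ran from -0.21 (without A549/DDP replicate 1) to 0.46 with 1 input left out, and was -0.10 without A549 replicate 1. ERCC2 ran from -0.44 to 0.17, the latter without A549/DDP replicate 1. The cause was not tested. With 2 libraries per line and no depth for the m6A-seq libraries, a missing call shows only that no peak was listed. Leaving 1 input out of a line assumes that the lone library varies like the others.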

Other observations

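Numbered zinc finger genes (symbols ZNF followed by a number), a family of transcription factors that was singled out after its values were seen, held 194 A549-only regions on 85 genes. These were 85 of the 171 such genes with a region in both A549 lists. They made up 6.02% of the genes with an A549-only region and 3.56% of the genes with a region in both A549 lists. No A549/DDP peak was found on 59 of the 85, and their input RNA had a median log2 fold change of -0.76, with 10 of 85 lower and 1 higher in edgeR. Of all genes tested 8% were lower and 6.85% higher, and of all genes with an A549-only region 18.3% were lower and 5.41% higher. Reads can be split among near-identical members of this family.

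Some A549-only regions lay on genes that the inputs hardly detected. In both A549 inputs 67 of the 1412 genes were under 1 TPM and 36 were at 0, although peaks were called on them in both A549 lists. In both A549/DDP inputs 112 genes were under 1 TPM and 77 were at 0, and 43 of the 112 were at 1 TPM or more in both A549 inputs.

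Markers of the line were among the genes too. CDH1, which encodes E-cadherin, had 1 A549-only region among 2 and no A549/DDP peak, while its input rose from 33.6 and 83.4 CPM to 312 and 249 CPM, a log2 fold change of 2.26 ± 0.43 (SE, edgeR adjusted p = 0.0220). ALDH3A1, an aldehyde dehydrogenase gene, had 1 A549-only region among 6 and kept 2 in all 4 lists, with a log2 fold change of 1.17 ± 0.14 (SE, edgeR adjusted p = 0.00635).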
